A study of Mus musculus with 20 samples.

Results

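The transcripts that encode 6 cytokines of helper T cells were followed through the follicular T cells of WT and autoimmune mice. They are Il21, Il4, Ifng, Il10, Il2 and Tnf, 6 of the 13798 genes of the expression matrix. They were chosen by name, with earlier results of these data known. Each was read in 28192 cells from 10 mice by its detection, its level and its presence beside the other cytokines in the same cell. A cell was counted as detected for a gene when it held at least 1 unique molecular identifier (UMI, a tag that marks 1 captured RNA molecule) after the depth correction of the authors.

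Follicular helper T (TFH) cells sit in the B cell follicle and help germinal centre B cells through contact and secreted cytokines. IL-21 drives B cell proliferation and plasma cell formation, IL-4 and IFN-γ direct class switching along different routes, and IL-10 acts on B cells while restraining other T cells. IL-2 feeds T cell growth and opposes the TFH programme, and TNF is an early inflammatory product of activated T cells. Follicular regulatory T (TFR) cells carry Foxp3, the transcription factor of regulatory T cells, and restrain the same reaction.

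All mice were irradiated C57BL/6 recipients reconstituted with congenic bone marrow. The 5 WT chimeras received WT marrow alone and were immunized at week 6 with NP-OVA in alum, a hapten bound to chicken ovalbumin. The study's methods also describe a later booster injection of NP-OVA for non-autoimmune chimeras. The 5 564Igi chimeras received WT marrow mixed with marrow of 564Igi mice, whose B cells carry a knocked-in autoreactive receptor, and were not immunized. Recipients were 8 to 10 weeks old, and both groups held mice labelled female and male. Every spleen was taken at week 10, and live CD4+CXCR5+PD-1+ cells were sorted for 1 gene expression and 1 T cell receptor (TCR) library per mouse. By the study's methods the sort also required CD3 and 1 congenic form of CD45, and left out cells with the other form. Chimera type and immunization cannot be told apart in this design. A lower share of cells with a transcript and a lower amount of RNA in each cell cannot be told apart for transcripts this sparse.

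The mice contributed 1121 to 4030 cells and 3424280 to 15241983 raw UMIs each, with a median of 2728 to 4375.5 raw UMIs per cell. The median depth per mouse did not separate the conditions (exact two-sided permutation p = 0.857 over 5 against 5 mice), nor did the heat shock score (p = 0.968, same exact test). Cd3e was found in 98.8 to 99.8% of the cells of each mouse and Cd4 in 63.3 to 69.6%. Of the B cell markers, Ms4a1 was in 0 to 0.239% of cells per mouse and Cd79a in 0.105 to 0.41%. The others were in more cells, Cd79b in 2.38 to 5.24%, Cd22 in 2.94 to 6.12% and Fcmr in 1.61 to 3.72%. Of the myeloid markers, Csf1r was in 0 to 0.165%, while Cst3, which is not restricted to them, was in 37.4 to 51.6%. None of the summed levels of the B cell, myeloid, natural killer and CD8, or erythroid markers passed the exact test between conditions (p = 0.444, 0.651, 0.786 and 0.936). The summed level of the activated TFH markers was 15.3 in WT and 19.0 in 564Igi chimeras per 10000 corrected UMIs (exact permutation p = 0.0556), and that of the effector markers 8.75 and 18.0 (exact p = 0.159). The mast cell and basophil list had none of its 4 genes in the matrix. Across libraries, 491 cell barcodes occurred in more than 1 library, in 988 cells.

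On GRCm38, Il21 lies at chr3:37222759-37232636 and Il2 at chr3:37120523-37125959, both on the minus strand and 96.8 kb apart. Il4 lies at chr11:53602982-53618669 on the minus strand, Ifng at chr10:118441046-118445892 on the plus strand, Il10 at chr1:131019845-131024974 on the plus strand and Tnf at chr17:35199381-35202007 on the minus strand. The reads are 5′ tags assigned to whole genes, so a value refers to the gene and not to a single exon.

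The promoters of Il21, Ifng and Il4 are shown because the results below turn on how often Ifng was found in the same cell as Il21 and as Il4. Each run is the 250 bases before the RefSeq start (GRCm38.p6), 5′ to 3′ on the strand of the gene, at chr3:37232637-37232886 for Il21, chr10:118440796-118441045 for Ifng and chr11:53618666-53618915 for Il4. Capitals mark GGAAA on either strand, the core that nuclear factor of activated T cells (NFAT) recognizes.
Il21: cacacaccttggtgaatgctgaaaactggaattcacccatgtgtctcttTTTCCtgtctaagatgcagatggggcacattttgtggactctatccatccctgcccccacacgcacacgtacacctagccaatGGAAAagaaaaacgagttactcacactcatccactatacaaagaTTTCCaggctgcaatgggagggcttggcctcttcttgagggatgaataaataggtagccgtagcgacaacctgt
Ifng: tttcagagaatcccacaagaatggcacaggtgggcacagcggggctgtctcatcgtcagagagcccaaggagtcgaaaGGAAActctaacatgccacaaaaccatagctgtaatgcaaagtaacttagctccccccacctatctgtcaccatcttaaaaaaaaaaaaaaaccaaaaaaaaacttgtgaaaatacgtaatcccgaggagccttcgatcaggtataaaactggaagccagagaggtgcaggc
Il4: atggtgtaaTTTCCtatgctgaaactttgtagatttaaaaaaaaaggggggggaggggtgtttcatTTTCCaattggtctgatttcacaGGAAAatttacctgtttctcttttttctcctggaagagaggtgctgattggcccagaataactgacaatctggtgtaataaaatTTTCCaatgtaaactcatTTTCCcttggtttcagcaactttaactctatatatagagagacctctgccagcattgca
Of the RefSeq starts of Il4, the run shown belongs to the one 4 bases from the annotated gene start, and the window of the other, at chr11:53617339-53617588 and 1331 bases from it, held 0 matches. The Il4 run shown held 5 such matches, the Il21 run 3 and the Ifng run 1, and RefSeq entries for Tnf and Il2 held 3 and 2. Of 32851 RefSeq promoters cut to the same length, 55.6% held at least 1 match, 6.39% at least 3 and 1.59% at least 4. The AP-1 motif TGANTCA, searched on both strands, was in none of these windows and in 6.75% of all. A match is a run of letters and was not tested for binding.

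Tnf and Il21 were the most widely detected of the 6, and most detected cells held a single molecule. Tnf was found in 4644 cells (16.5% of all cells), Il21 in 4232 (15.0%), Il4 in 2818 (10.0%), Ifng in 2667 (9.46%), Il10 in 787 (2.79%) and Il2 in 162 (0.575%). Between 65.6% of the detected cells for Il10 and 77.2% for Il2 held exactly 1 corrected UMI. A few cells held many more: the highest count in a cell was 66 for Il10, 43 for Il4, 27 for Il2, 25 for Tnf, 14 for Il21 and 12 for Ifng. The top 1% of detected cells carried 12.1% of all Il10 UMIs and 4.73% of all Il21 UMIs. Detected cells also held more raw UMIs, with a median of 4089 in cells with Il21 and 3452 in cells without it, and 5576 against 3537 for Il2.

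Every 564Igi chimera had more Il21-positive cells, as a share, than any WT chimera. The share was 10.6, 7.77, 15.8, 14.4 and 15.0% in WT mice 11, 12, 14, 23 and 36, and 19.0, 16.0, 18.1, 17.5 and 16.997% in 564Igi mice 13, 17, 21, 24 and 34. The groups did not overlap, although WT mouse 14 and 564Igi mouse 17 lay next to each other, and WT mouse 12 was the lowest of all. The WT mean of 12.7% ± 3.39 stood against a 564Igi mean of 17.5% ± 1.14 (SD, n = 5 each), which differ by 4.82 percentage points and by a ratio of 1.38. The exact two-sided permutation test over mice gave p = 0.00794, the smallest value that 5 against 5 mice allow. Both markers of the activated TFH cluster were also in more cells of the 564Igi chimeras, Tnfsf8 in 48.2 against 41.1% (exact permutation p = 0.00794) and S100a6 in 75.0 against 66.6% (exact p = 0.0238). The central memory markers, of the cluster with the fewest Il21 cells, summed to 2.28 in WT and 1.397 in 564Igi chimeras per 10000 corrected UMIs (exact permutation p = 0.0635), with Ccr7 in 13.03 and 8.51% of cells (exact p = 0.0159) and Sox4 in 3.20 and 1.31% (exact p = 0.0397). With 1 common cluster make-up for all mice the Il21 difference still had an exact permutation p of 0.0159.

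Ifng was higher in the 564Igi chimeras as well, with overlap. Its share was 7.98, 3.05, 9.42, 9.63 and 8.41% in the WT mice in the same order, and 12.9, 8.56, 12.9, 12.5 and 10.6% in the 564Igi mice. Only 564Igi mouse 17 lay inside the WT range, and WT mouse 12 was again far below the others. The means were 7.70% ± 2.69 and 11.5% ± 1.90 (SD, n = 5 each, exact permutation p = 0.0238). Without 564Igi mouse 13, 21 or 24 the exact p was 0.0556 to 0.0635.

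Tnf went the other way. It was found in 19.7, 18.1, 20.5, 16.8 and 15.6% of the cells of the WT mice and in 17.7, 13.1, 15.5, 13.9 and 14.2% of those of the 564Igi mice. The ranges overlapped, with 564Igi mouse 13 above WT mice 23 and 36. The means were 18.2% ± 2.01 and 14.9% ± 1.78 (SD, n = 5 each, exact permutation p = 0.0317). Without WT mouse 11, 12 or 14 or 564Igi mouse 17, 24 or 34 the exact p was 0.0556 to 0.0714. WT mouse 12, the lowest of its group for Il21 and Ifng, was in the middle of its group for Tnf.

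Il10, Il4 and Il2 did not separate the conditions by the share of detected cells. Il10 was found in 0.781 to 4.13% of cells in WT (median 1.91%) and 2.50 to 5.03% in 564Igi chimeras (median 3.11%, exact permutation p = 0.135), and without WT mouse 14 the exact p was 0.0238. Il4 had nearly the same mean in both, 9.49% ± 2.48 and 9.84% ± 3.33 (SD, n = 5 each, exact permutation p = 0.913), and its highest share, 14.7%, was in 564Igi mouse 17. Il2 was in 0.422 to 1.23% of WT and 0.298 to 0.803% of 564Igi cells (exact permutation p = 0.246).

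The background was taken from the 9959 genes that reached 1% of cells in 5 or more mice. Of these, 0.823% had an exact p under 0.05 and a higher share in 564Igi chimeras, and 1.17% had one and a lower share. Of the 6 cytokines, Il21 and Ifng were in the first class and Tnf in the second. The cytokines were chosen with earlier results of these data known, so these counts are not a test of the set. Since 252 group assignments exist, a gene cannot pass a correction over all of these genes by this test, and none of these p-values is corrected.

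**Figure D1:**
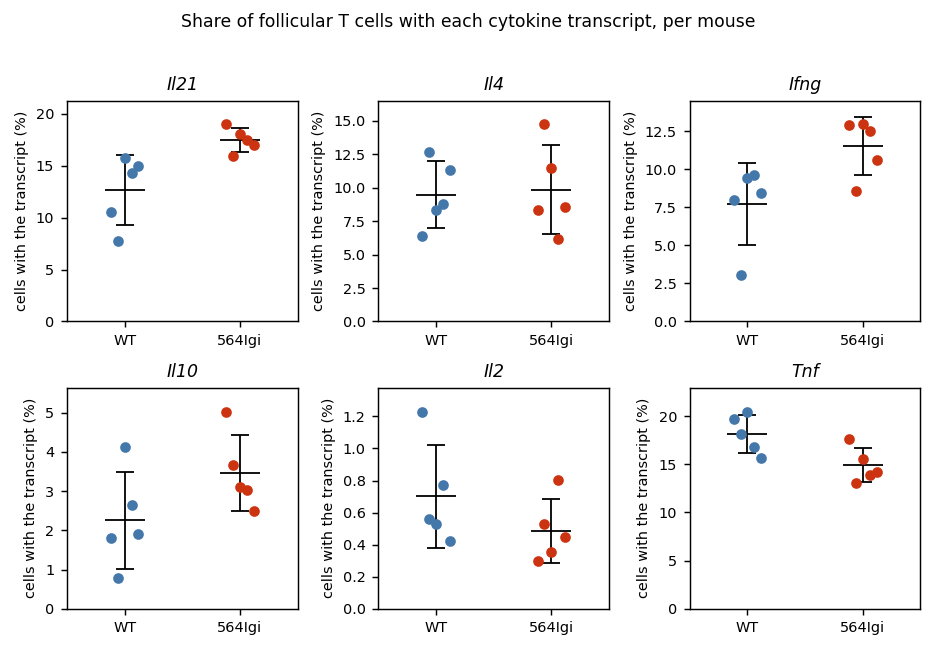
Share of follicular T cells with at least 1 corrected UMI of each cytokine (y axis, percent; each panel has its own scale) in WT and 564Igi chimeras. Each point is a mouse and black lines are the mean ± SD of 5 mice; Il21 shares of 564Igi mice lie between 16.0 and 19.0%, all above the WT mice, while Tnf is lower on average in 564Igi mice and Il4 has nearly equal means.

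For the 3 cytokines that differed, the number of molecules in a detected cell did not pass the test. The mean was 1.46 corrected UMIs per cell with Il21 in WT and 1.54 in 564Igi chimeras (exact permutation p = 0.214, n = 5 each), 1.42 and 1.47 for Ifng (exact p = 0.310) and 1.49 and 1.54 for Tnf (exact p = 0.349). Il10 passed the test on this measure. Cells with Il10 held 1.55, 1.29, 1.53, 1.84 and 1.42 corrected UMIs on average in the WT mice and 1.80, 2.27, 1.95, 1.76 and 2.70 in the 564Igi mice (exact permutation p = 0.0238). WT mouse 23 was the only WT mouse inside the 564Igi range. The mean of 564Igi mouse 34 rested on 73 detected cells, and 8 cells over all mice carried 12.1% of the Il10 UMIs. The share of cells with 2 or more Il10 UMIs was also higher, 0.640% in WT and 1.37% in 564Igi chimeras (exact permutation p = 0.0238). How many of all genes pass on the number of molecules per detected cell was not examined. Of the 9 cells with 10 or more Il10 UMIs, 8 came from 564Igi chimeras: 4 in the activated cluster, 3 in the TFR cluster and 1 in the effector cluster.

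A test across all genes called none of the 6 cytokines. On the mean log2(corrected UMI + 1) per mouse, limma called 1 of 9959 genes (0.01%) in all follicular T cells at an adjusted p under 0.01 and a log2 difference over 0.2. Il2 did not pass the filter there, and the other 5 were tested. The difference of the mean log2 level was 0.07 ± 0.02 (SE) for Il21 (unadjusted p = 0.0021, adjusted p = 0.613), 0.05 ± 0.02 for Ifng (adjusted p = 0.872) and -0.04 ± 0.02 for Tnf (adjusted p = 0.9997). For Il10 it was 0.02 ± 0.01 (adjusted p = 0.936) and for Il4 0.00 ± 0.02 (adjusted p = 0.9997). The limit of 0.2 is larger than the whole mean log2 level of Il21 in WT, 0.156. With no limit on the fold and an adjusted p under 0.05, limma called 7 genes (0.0703%) and 0 of the cytokines. At an unadjusted p under 0.05 stood 4 of the 5 cytokines tested and 318 of the 9959 genes (3.19%). As above, this count is not a test of the set.

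The same test in single clusters also called none of the cytokines. It called 1 gene of those tested in the activated (0.0101%), 2 in the TFR (0.02%), 2 in the Sostdc1 (0.0202%), 0 in the central memory (0%), 1 in the effector (0.0104%) and 1 in the interferon stimulated cluster (0.0106%). In the central memory cluster 784 genes had an unadjusted p under 0.05.

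The authors divided the cells into 6 clusters, and the cytokines were spread over them in different patterns. Clusters were made from the same expression values, so the order of clusters is a description without a test. The activated TFH cluster held 11953 cells, the TFR cluster 11650, the Sostdc1 TFH cluster 2803, the central memory cluster 725, the effector cluster 682 and the interferon stimulated cluster 379. Foxp3 was found in 56.7% of the TFR cluster and in 4.32 to 7.19% of the activated, Sostdc1, central memory and effector clusters. In the interferon stimulated cluster it was found in 25.9%. Below, TFR cells are the cells of the TFR cluster, with or without Foxp3. The share of cells in each cluster did not pass the test between conditions (lowest exact permutation p = 0.0794, for central memory). The central memory cluster held 3.68% of cells in WT and 1.41% in 564Igi chimeras as means over mice. The study reported fewer central memory TFH cells in its autoimmune chimeras, and found a decrease by flow cytometry as well.

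Il21 and Il4 followed the same order at the top. Il21 was found in 29.1% ± 5.37 (SD over 10 mice) of Sostdc1 cells, 21.7% ± 4.98 of activated cells, 14.5% ± 4.43 of interferon stimulated cells, 6.44% ± 4.07 of effector cells, 6.09% ± 1.303 of TFR cells and 2.83% ± 3.16 of central memory cells. Sostdc1 lay above activated in 10 of 10 mice, while effector and TFR did not have a fixed order (effector higher in 4 of 10). Il4 was found in 18.2% ± 3.67 of Sostdc1 and 12.6% ± 4.84 of activated cells, again in this order in 10 of 10 mice, and in 5.91% ± 1.39 of TFR cells. In the effector cluster Il4 was found in 5 of 682 cells, 0.566% ± 0.919 as a mean over mice, at a median depth of 3471 raw UMIs against 3547 in activated cells.

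Ifng led in another cluster. It was found in 32.9% ± 11.7 of effector cells, above Sostdc1 cells (15.5% ± 4.82) in 9 of 10 mice. Activated cells were at 13.5% ± 4.12 and interferon stimulated cells at 12.4% ± 5.80, and these neighbours did not keep their order in all mice. TFR cells were at 2.69% ± 0.668. Il10 also led in the effector cluster, with 7.71% ± 4.29, followed by interferon stimulated (3.59% ± 3.38), activated (3.14% ± 1.43) and TFR cells (2.95% ± 1.42), which overlapped. In the Sostdc1 cluster, first for Il21 and Il4, Il10 was found in 12 of 2803 cells, 0.318% ± 0.453 over mice.

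Tnf was spread most evenly. It was found in 21.1% ± 4.94 of Sostdc1, 18.3% ± 3.19 of activated, 14.8% ± 2.48 of TFR, 13.1% ± 5.07 of effector and 11.7% ± 2.58 of interferon stimulated cells, and in 3.97% ± 0.787 of central memory cells. Il2 was highest in the effector cluster (2.11% ± 1.57) and below 1% on average in every other.

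**Figure D2:**
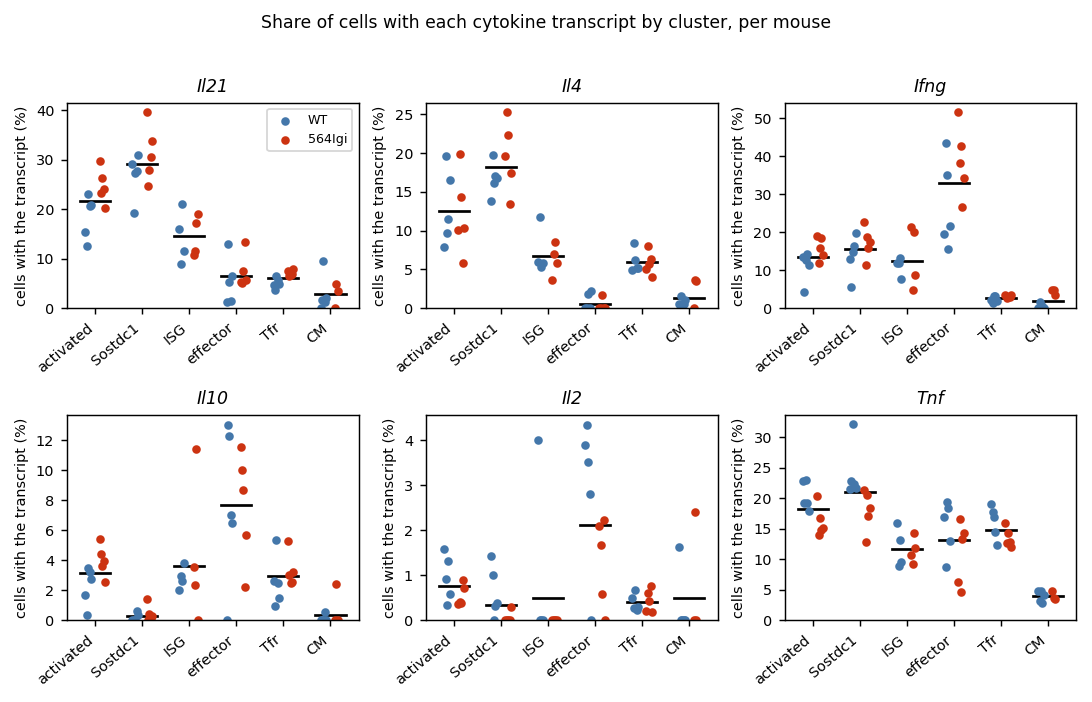
Share of cells with each cytokine (y axis, percent; each panel has its own scale) in the 6 clusters of the authors, where ISG stands for interferon stimulated and CM for central memory. Points are mice with at least 20 cells of the cluster and black lines are means over mice; Il21 and Il4 are highest in Sostdc1 cells (29.1 and 18.2%), and Ifng in effector cells (32.9%).

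Within the large clusters, Il21 was higher in 564Igi chimeras in both the activated and the TFR cluster. In the activated cluster its share was 15.4, 12.6, 23.2, 20.7 and 20.9% in the WT mice and 29.8, 23.2, 26.4, 24.1 and 20.3% in the 564Igi mice (exact permutation p = 0.0476, n = 5 each). 564Igi mouse 34 lay within the WT range there. Leaving out any mouse but WT mouse 14 and 564Igi mouse 34 took the exact p to between 0.0556 and 0.103, and permuting mice within labelled sex gave 0.0600. In the TFR cluster the shares were lower and did not overlap, 4.77, 3.69, 6.43, 5.76 and 4.84% against 7.42, 6.51, 6.78, 6.89 and 7.81% (exact permutation p = 0.00794). Foxp3 was found in only 28.2% of the cells with Il21 in this cluster, against 58.4% of those without it. In Sostdc1 cells the means were 26.9% ± 4.51 and 31.3% ± 5.70 (SD, n = 5 each, exact permutation p = 0.230).

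Tnf was lower in 564Igi chimeras in the activated and Sostdc1 clusters. In Sostdc1 cells the shares were 21.5, 22.8, 32.2, 22.4 and 21.6% in WT and 21.4, 12.9, 20.5, 17.1 and 18.3% in 564Igi mice, without overlap (exact permutation p = 0.00794). The lowest WT value and the highest 564Igi value there differed by less than 1 percentage point. Among cells of 3000 to 4500 raw UMIs the difference was -4.15 points (exact permutation p = 0.381). In activated cells the means were 20.4% ± 2.35 and 16.2% ± 2.51 (SD, n = 5 each, exact permutation p = 0.0397), and in TFR cells 16.1% ± 2.69 and 13.5% ± 1.56 (exact permutation p = 0.103). Without WT mouse 11 or 14 or 564Igi mouse 17, 21, 24 or 34 the exact p in activated cells was 0.0635 to 0.0714, permuting within labelled sex gave 0.05 there, and without WT mouse 36 that in TFR cells was 0.0317.

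Ifng and Il10 did not pass the test inside single large clusters. The Ifng means in activated cells were 11.2% ± 4.01 and 15.8% ± 2.98 (SD, n = 5 each, exact permutation p = 0.0714), and the Il10 means 2.28% ± 1.28 and 3.997% ± 1.05 (exact permutation p = 0.0556). Without 564Igi mouse 17 the exact p of Ifng was 0.0238, and without WT mouse 14 or 564Igi mouse 34 that of Il10 was 0.0397 or 0.0238. Il4 had exact p-values of 0.786 in activated, 0.873 in TFR and 0.238 in Sostdc1 cells, the last 0.0476 without 564Igi mouse 24. Il2 in Sostdc1 cells rested on 9 detected cells in all and is not read further, although its exact p was 0.0476. In activated cells 1.01% of 9859 genes had an exact p under 0.05 and a higher share in 564Igi chimeras and 1.34% a lower share. The figures were 1.15% and 1.67% of genes in TFR cells, and 1.07% and 2.84% in Sostdc1 cells.

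The size of the condition difference was then compared between TFR and activated cells. For Il21 it was 1.98 percentage points in TFR and 6.21 in activated cells, and the difference between them did not pass (exact permutation p = 0.103). None of the other 5 passed this test either (lowest exact p = 0.103, for Ifng). Without 564Igi mouse 34 the Il21 value was -5.51 points (exact permutation p = 0.0397), without 564Igi mouse 17 that of Ifng was -4.84 (0.0476), and without WT mouse 14 or 12 those of Il2 and Tnf were 0.663 and 2.35 (0.0317 each). As a ratio of means the Il21 shares were 1.39 in TFR and 1.33 in activated cells.

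Cytokine transcripts were not distributed over cells independently of each other. The number of cells with both transcripts of a pair was set against the number expected from the shares of each inside every mouse and cluster, summed over clusters. Il21 and Ifng were found together in 804 cells, where 549 were expected. The ratio of observed to expected cells was above 1 in all 10 mice, from 1.125 to 1.98. Il21 and Tnf were together in 1141 cells against 755 expected (ratio 1.37 to 1.64 over mice), and Ifng and Tnf in 698 against 464 (1.22 to 1.71), above 1 in 10 of 10 mice each. Il4 and Tnf were together in 595 cells against 493 (1.02 to 1.55, 10 of 10 mice), and Il21 and Il4 in 636 against 537 (0.981 to 1.38, above 1 in 9 of 10). The last pair differed by cluster. Il4 was in 15.0% of TFR cells with Il21 and 5.34% of those without it, higher with Il21 in 10 of 10 mice. In activated cells it was in 13.9 and 12.2% (higher in 7 of 10), and in Sostdc1 cells in 16.6 and 18.8% (higher in 3 of 10).

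Summed over clusters, Il4 and Ifng were found together less often than expected. They shared 193 cells where 309 were expected, a ratio of 0.61 ± 0.242 (SD over 10 mice). The ratio was 0.631, 0.349, 0.922, 0.454 and 0.471 in WT mice 11, 12, 14, 23 and 36 and 0.873, 0.274, 0.940, 0.479 and 0.711 in the 564Igi mice, below 1 in every mouse of both groups. WT mouse 14 and 564Igi mouse 21 were close to 1, and 564Igi mouse 17 was the lowest. In activated cells alone the pooled ratio was 0.491. There Ifng was found in 6.69% ± 3.74 of cells with Il4 and 14.5% ± 4.13 of cells without it (SD over 10 mice), lower with Il4 in 10 of 10. The TFR cluster did not show this gap. Its shares with Ifng were 2.86% ± 2.52 of cells with Il4 and 2.68% ± 0.642 of cells without it, higher with Il4 in 4 of 10 mice.

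For most pairs, cells with both transcripts held more raw UMIs at the median than cells with neither. Cells with both Il21 and Ifng had a median of 4366.5 raw UMIs and cells with neither 3418, and the 193 cells with Il4 and Ifng had 4396. With the expectation also kept apart by depth class, with 3 classes of raw UMIs per cluster and mouse, the pooled ratio was 1.354 for Il21 and Ifng, 1.39 for Il21 and Tnf, 1.38 for Ifng and Tnf, 1.16 for Il4 and Tnf, 1.15 for Il21 and Il4 and 0.609 for Il4 and Ifng.

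Il10 was found beside Il21 and Ifng more often, and beside Il4 less often, than expected. It was found with Il21 in 233 cells (118 expected, above 1 in 10 of 10 mice), with Ifng in 187 (88.6 expected, 10 of 10), and with Il4 in only 30 (71.5 expected, below 1 in 10 of 10). For these pairs fewer than 3 cells were expected in some mice, so no difference between conditions was tested. In activated cells Il10 was found in 6.34% ± 3.04 of cells with Il21 and 2.15% ± 0.848 of cells without it. Il2 was found beside Tnf in 66 cells (27.6 expected) and beside Ifng in 36 (18.7 expected), and beside Il4 in 8 (15.4 expected).

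Of the 7 pairs whose expected number reached 3 in every mouse, 6 did not pass the test between conditions in this ratio (exact permutation p from 0.0873 to 0.746, n = 5 each). Il10 and Tnf had a ratio of 0.8293 ± 0.183 in WT and 1.200 ± 0.268 in 564Igi chimeras (SD, n = 5 each, exact permutation p = 0.0476). The groups overlapped, with 4 of 5 WT and 1 of 5 564Igi mice below 1, and the pooled ratio was 1.04. Leaving out any of WT mice 11, 14, 23 and 36 and 564Igi mice 13, 17 and 34 took the exact p to between 0.0714 and 0.0873. At 2 or more UMIs the difference of the ratio, 564Igi minus WT, was -1.77 for Il21 and Ifng (exact permutation p = 0.00794), and -1.81 for Ifng and Tnf (exact p = 0.0397). The limit of 3 expected cells per mouse was set at 1 or more UMIs and was not applied again there. Fewer cells are expected at 2 or more UMIs, so these differences rest on small numbers and are not read further. Counted at 1 or more UMIs, the exact p for Il21 and Ifng was 0.0397 without WT mouse 36 and 0.0317 with clusters not kept apart. That for Il4 and Tnf was 0.0238 without 564Igi mouse 24.

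**Figure D3:**
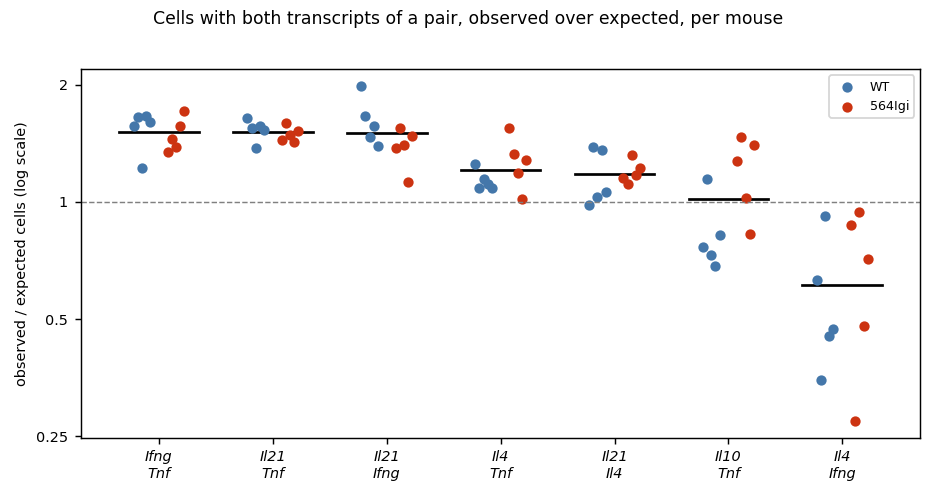
Cells with both transcripts of a pair, as observed over expected number within mouse and cluster (y axis, log scale; the dashed line marks 1). Points are mice and black lines are means over 10 mice; Il4 and Ifng lie below 1 in all 10 mice, and Il21 with Ifng, Il21 with Tnf and Ifng with Tnf lie above 1 in all 10.

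Counted per cell, 16869 cells held none of the 6 transcripts, 8056 held 1, 2629 held 2, 559 held 3 and 79 held 4 or more. Cells with 2 or more were 10.3% ± 2.14 of WT and 12.7% ± 1.70 of 564Igi cells (SD, n = 5 each, exact permutation p = 0.127).

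Within the TFR cluster, cells with most of these cytokines carried Foxp3 less often. Foxp3 was found in 28.2% of the 689 TFR-cluster cells with Il21 and in 58.4% of those without it, lower in 10 of 10 mice. With Ifng it was 28.3% of 304 cells against 57.4%, and with Il2 6.98% of 43 cells against 56.8%. With Il4 it was 42.0% of 686 against 57.6%, and with Tnf 49.4% of 1736 against 57.9%, each lower in 10 of 10 mice. Il10 was the reverse. Foxp3 was found in 71.1% of the 329 TFR-cluster cells with Il10 and in 56.2% of those without it, higher in 10 of 10 mice. Cells with each of the cytokines held more raw UMIs, with a median of 4418 for Il21 against 3409 and 3679 for Il10 against 3455. Since Foxp3 took part in making the cluster, these shares are a description.

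The TCR library gave a paired α and β chain for 21405 of the cells (75.9%), so that cells of 1 clone could be compared. A clonotype is a pair of CDR3 sequences, the part of each chain that contacts antigen, within a mouse. In the activated cluster, cells of clonotypes with 5 or more cells carried Il21 more often than cells whose clonotype was seen once. In clonotypes with 5 or more cells, Il21 was found in 23.1, 14.8, 26.6, 28.4 and 24.8% of the cells of the WT mice and 32.3, 27.1, 28.4, 31.3 and 20.5% of those of the 564Igi mice. In single-cell clonotypes it was found in 8.44, 7.89, 21.1, 8.19 and 14.7%, and 22.1, 16.2, 16.7, 17.1 and 19.3%. The share was higher in expanded clonotypes in 10 of 10 mice, with means of 25.7% ± 5.21 and 15.2% ± 5.31 (SD, exact sign-flip p = 0.00195, the smallest that 10 mice allow).

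Il10 showed the same order in activated cells, 4.21% ± 2.22 in expanded and 1.64% ± 1.11 in single clonotypes, in 10 of 10 mice (exact sign-flip p = 0.00195). Ifng was at 15.5% ± 4.39 and 11.3% ± 5.08, higher in 8 of 10 mice (exact sign-flip p = 0.0312). Leaving out any of WT mice 11 and 23 and 564Igi mice 13, 17 and 34 took that exact p to between 0.0547 and 0.0625. Il4 was at 11.2% ± 3.78 and 13.9% ± 7.76 (higher in 4 of 10, exact sign-flip p = 0.307), Tnf at 19.4% ± 4.81 and 17.02% ± 3.32 (exact sign-flip p = 0.0938) and Il2 at 0.496% ± 0.323 and 1.27% ± 1.11 (exact sign-flip p = 0.0547). The exact p of Tnf was 0.0469 without 564Igi mouse 21, 0.0312 without 564Igi mouse 34 and 0.0391 with clonotypes of 2 or more cells counted as expanded, and that of Il2 was 0.0234 without WT mouse 14 or 564Igi mouse 24. Among cells of 3000 to 4500 raw UMIs the Il4 gap was -4.33 points (exact sign-flip p = 0.0332). Expanded activated cells held fewer raw UMIs than single ones, with mean medians of 3513 and 3921, lower in 8 of 10 mice.

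In TFR cells no cytokine passed this test (lowest exact sign-flip p = 0.133, for Il21), while at 2 or more UMIs the Il21 gap was 0.864 points (exact sign-flip p = 0.0234). In Sostdc1 cells, where 7 mice had 20 or more cells of both kinds, Il4 was lower in expanded clonotypes in 7 of 7 mice, 18.9% ± 4.32 against 24.6% ± 4.36 (exact sign-flip p = 0.0156, the smallest that 7 mice allow). Counted at 2 or more UMIs the Il4 gap was -3.13 points (exact sign-flip p = 0.328). In all, 15 combinations of cytokine and cluster were tested.

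**Figure D4:**
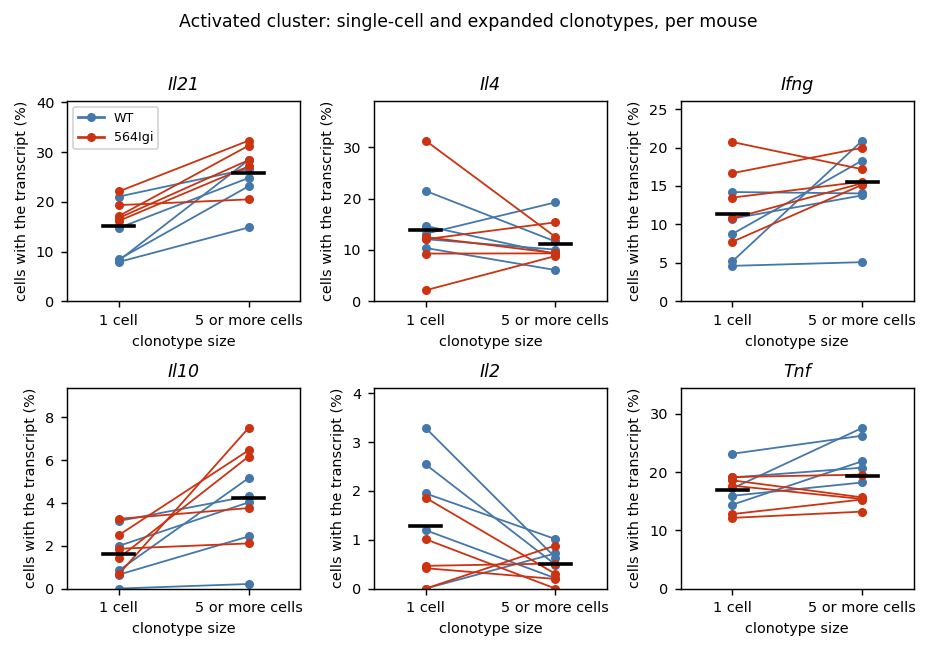
Share of activated-cluster cells with each cytokine (y axis, percent; each panel has its own scale) in clonotypes seen once and in clonotypes of 5 or more cells. Each line joins the values of a mouse and black bars are means over 10 mice; Il21 and Il10 are higher in the larger clonotypes in all 10 mice.

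Sister cells, those with the same clonotype, mouse and cluster, resembled each other in cytokine detection. For each cell with a cytokine, the share of its sisters with the same cytokine was set against the share among all cells with sisters in that mouse and cluster. Il4 gave the widest gap. Sisters of cells with Il4 carried it in 13.9, 21.4, 25.7, 26.9 and 39.3% in the WT mice and 12.5, 29.8, 22.3, 17.3 and 6.32% in the 564Igi mice, and the baselines were 7.38, 15.5, 8.76, 9.90 and 13.3%, and 11.3, 15.1, 15.6, 6.90 and 9.49%. Only 564Igi mouse 34 lay below its baseline. The mean gap was 10.2 ± 8.61 percentage points (SD over 10 mice, exact sign-flip p = 0.00586).

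Ifng was found in 23.4% ± 5.06 of sisters against a baseline of 16.8% ± 4.06, and Il21 in 28.2% ± 4.87 against 23.5% ± 4.42, each above baseline in 10 of 10 mice (exact sign-flip p = 0.00195 for both). Il10 could be scored in 7 mice and was found in 12.9% ± 4.49 of sisters against 4.36% ± 1.64, above baseline in 7 of 7 (exact sign-flip p = 0.0156). Tnf, the most widely detected, was at 19.0% ± 4.25 against 17.7% ± 3.72 (exact sign-flip p = 0.0703). Without WT mouse 36 the Tnf gap was 1.88 points (exact sign-flip p = 0.00391). None of the gaps of Il21, Il4, Ifng and Tnf differed between conditions (exact permutation p from 0.135 to 0.968, n = 5 each). No mouse had 20 cells with Il2 and sisters.

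Sisters also carried the split between Il4 and Ifng. Sisters of cells with Il4 carried Ifng in 8.32% ± 3.91 of cases against a baseline of 12.6% ± 3.69, below it in 10 of 10 mice (exact sign-flip p = 0.00195). Scored from the other side, sisters of cells with Ifng carried Il4 in 7.07% ± 2.07 against 11.1% ± 3.24, below in 10 of 10 mice (exact sign-flip p = 0.00195). Both directions count the same pairs of sister cells with different weights, so they are not separate results. Sisters of cells with Il21 carried Ifng in 16.7% ± 4.57 against 14.4% ± 4.004, above in 9 of 10 (exact sign-flip p = 0.0137), and Il4 in 11.7% ± 4.45 against 11.97% ± 3.52 (exact sign-flip p = 0.729). These comparisons were among 16 ordered pairs, and they were chosen after the co-detection had been seen. Benjamini-Hochberg adjustment of the sign-flip p over the 16 gave 0.0156 for Il4 and Ifng in either direction. It gave 0.05 for Ifng in sisters of cells with Il21.

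**Figure D5:**
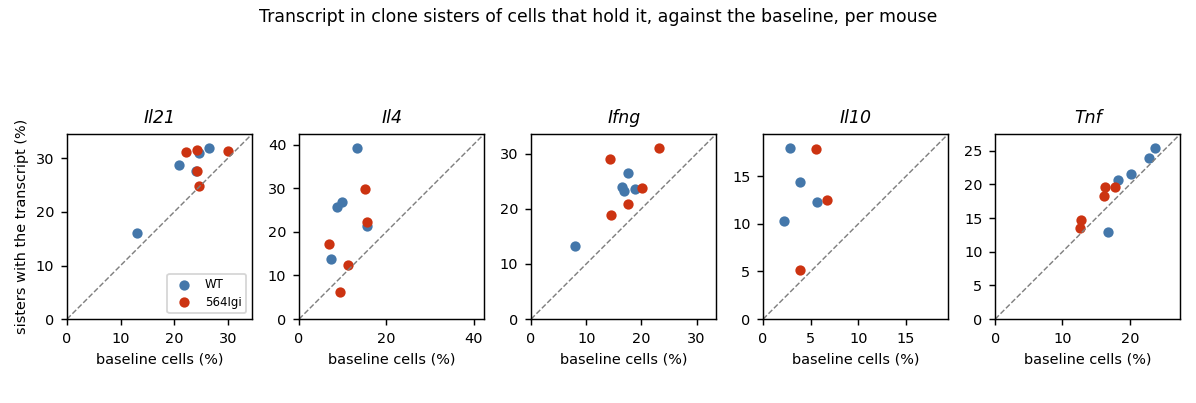
Share of clone sisters with a cytokine, for sisters of cells that hold it (y axis, percent), against the share among all cells with sisters in the same mouse and cluster (x axis, percent). Points are mice with at least 20 scored cells and the dashed line marks equality; all 10 mice lie above it for Il21 and Ifng and all 7 for Il10.

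The genes whose mean level over the 56 mouse-by-cluster means was most like that of a cytokine are given by Pearson r as a description, since the points share mice and libraries. For Il21 they were Tnfsf8 (r = 0.932), which encodes CD30 ligand, Angptl2 (0.917) and Gpm6b (0.915). For Il4 they were Cd40lg (0.913), the ligand through which TFH cells signal to B cells, Gm14718 (0.887) and Slco3a1 (0.845). For Ifng they were Id2 (0.822), an inhibitor of E proteins, Nab1 (0.812) and Itgb2 (0.811), an integrin chain. For Il10 they were Gm33782 (0.764), Rgs1 (0.748) and Agpat4 (0.745), and for Il2 Sorl1 (0.709), Itga4 (0.707) and Ifitm10 (0.686).

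No gene of the related lists was called between conditions in all follicular T cells. Of 16 other helper cytokines tested, 9 had a higher and 7 a lower mean level in 564Igi chimeras, with Ltb (log2 difference -0.09 ± 0.09 SE), Mif (0.26 ± 0.08, adjusted p = 0.872) and Il16 (0.08 ± 0.06) at the highest level. Of the 12 receptor genes 4 were higher and 8 lower, with Il2rg (-0.08 ± 0.07), the common γ chain, Il2rb (0.01 ± 0.04) and Il21r (0.00 ± 0.03) at the top. Of 29 regulators 15 were higher and 14 lower, with Ikzf2 (-0.16 ± 0.09), Maf (0.13 ± 0.07), which drives Il21 and Il4 in TFH cells, and Junb (0.07 ± 0.11) at the top. Of 14 response genes 12 were higher and 2 lower, with a median log2 difference of 0.03, and Nfkbia (0.05 ± 0.09), Irf1 (0.06 ± 0.04), an interferon target, and Pim1 (0.06 ± 0.05) led by level. Over all 9959 genes tested the median log2 difference was -0.0018. The counts of higher and lower genes in these lists were not tested. The adjusted p of limma was at least 0.872 for each gene named here.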

How the data were processed

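Single-cell RNA and TCR libraries were made from the sorted spleen cells of 10 mice. The authors aligned the reads with Cell Ranger 4.0.0 to GRCm38 (mm10), and with Seurat 3.1.4 filtered cells on genes, reads, mitochondrial and ribosomal content and cell cycle, integrated and clustered them (versions as in the submitters' processing notes and the study's methods). The deposited expression values are the natural log of depth-corrected UMI counts plus 1. The authors made them with sctransform, separately for each condition, with mitochondrial, ribosomal, UMI and heat shock terms regressed. A level or a share of detected cells set across conditions therefore joins tables normalized apart. The corrected counts were whole numbers in 100% of values (tolerance 1e-06). The total raw UMI count per cell and the heat shock score are deposited per cell. Raw counts per gene were not used here, so no count model was fitted. No doublet caller was run, and the study's methods name a multiplet rate without a removal step.

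Mice were the replicates. Shares of detected cells were compared by exact two-sided permutation over 252 assignments, clone comparisons by exact sign flips within mice, and levels by limma 3.58.1 (R 4.3.3, with trend) on the mean log2(corrected UMI + 1) per mouse, for genes in at least 1% of cells in 5 mice, with Benjamini-Hochberg adjustment. On this scale a fold change of a low gene is understated. A mouse needed 20 cells in a cluster. The limma step was tested on simulated data. Exact p-values are the share of group assignments or sign flips whose mean difference was at least as large as that observed. With 1 library of each kind per mouse, differences between mice and between libraries cannot be told apart.

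The 6 cytokines were named in every comparison. From each related list, called genes and the 3 with the highest mean level were named, and for each cytokine the 3 genes with the highest correlation. The correlated genes of Tnf are not reported here. The members and lists were chosen with earlier results of these data known. Alternatives covered the detection limit, thinning to 2804 corrected UMIs per cell, a depth window of 3000 to 4500 raw UMIs, the labelled sex, cluster make-up, the clonotype definition, the limma settings and each mouse left out. Python 3.11.15 with numpy 2.4.6, pandas 2.3.3, scipy 1.17.1 and matplotlib 3.10.9 was used.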

Additional observations from a re-analysis of the deposited data

Results flagged for a closer look

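A mouse that stood apart from its group of 5 was found in 6 of 62 groups examined, by Dixon's ratio of the gap to the range, where chance gives about 1 in 20 for values without ties. Ifng was found in 3.05% of all cells of WT mouse 12, and in 4.33% of its activated cells, both far below the other WT mice. Il10 was found in 5.29% of the TFR cells of 564Igi mouse 13, above the rest of its group. Il2 was found in 0.291% of the Sostdc1 cells of 564Igi mouse 34 and in none of those of the other 564Igi mice. Tnf was found in 32.2% of the Sostdc1 cells of WT mouse 14, above the other WT mice. The observed over expected number of cells with Ifng and Tnf was 1.22 in WT mouse 14, below the other WT mice.

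The gap in Tnf between expanded and single clonotypes of activated cells differed between conditions. It was 4.98 percentage points in WT and -0.248 in 564Igi chimeras, a difference of -5.23 (exact permutation p = 0.0238, n = 5 each). The same difference for the other 5 cytokines had exact p-values from 0.270 to 0.897.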

How the results depend on the processing

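No paired analysis was possible because the groups share no replicate numbers. The Il21 difference over all cells kept its direction and stayed under 0.05 in every alternative (highest exact permutation p = 0.0317), and no cytokine was called by limma under any setting. Without mice 34 and 36 the Ifng difference was 4.20 points (exact p = 0.0857) and that of Tnf -3.72 (0.0571). Counted at 2 or more UMIs, the Il10 difference was 0.732 (exact p = 0.0238), that of Tnf -0.553 (0.159), and the TFR minus activated values were -1.97 for Il21 (0.0238) and 1.39 for Tnf (0.0159). Among cells of 3000 to 4500 raw UMIs the differences were 1.86 for Il10 (exact p = 0.0476), -0.283 for Il2 (0.0159) and -3.40 for Tnf (0.0556). With 1 mouse left out, the differences ran from 2.63 to 4.53 for Ifng, 0.821 to 1.68 for Il10 and -3.95 to -2.68 for Tnf, the TFR minus activated values from -5.51 to -3.04 for Il21, -4.84 to -2.43 for Ifng, 0.309 to 0.663 for Il2 and 1.17 to 2.35 for Tnf, and the Tnf sister gap from 1.07 to 1.88. Of the 18 cytokine and cluster combinations, 5 had an exact p under 0.05, 2 when mice were permuted within sex, and 2 to 6 with 1 mouse left out. Thinned to 1 common total, the Il21 difference in activated cells was 5.02 (exact p = 0.0556). The pooled co-detection ratio at 2 or more UMIs was 1.49 for Il21 and Il4, 2.39 for Il21 and Ifng, 2.39 for Il21 and Tnf, 1.98 for Il4 and Tnf, 3.33 for Ifng and Tnf and 1.97 for Il10 and Tnf. With clusters not kept apart it was 1.51 for Il21 and Il4, 1.90 for Il21 and Ifng and 1.66 for Il21 and Tnf. For Il21 and Tnf it was 1.39 within depth classes and 1.38 in activated cells, where Il10 and Tnf fell under 1, to 0.950. Il2 in Sostdc1 cells turned to 0.0195 points at 2 or more UMIs. The cause of these shifts was not tested. Leaving out cells with more than 1 α or β chain changed nothing, since none had more.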

Other observations

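Tnf had the most cells with 10 or more corrected UMIs, 33 in all, and 31 of them lay in the TFR cluster, from all 10 mice (1 to 7 per mouse). Foxp3 was found in 2 of these 31 cells, 6.45%, against 56.8% of the other TFR-cluster cells. Cd40lg was found in 80.6% against 17.9%, and Tnfsf8 in 83.9% against 20.1%. Nr4a1 and Egr2, genes induced by TCR signalling, were in 93.5% against 13.8% and in 96.8% against 16.7%. Their median depth was 4208 raw UMIs against 3460, and the 24 with a paired TCR belonged to 24 clonotypes. These genes were chosen after their values had been seen, and no test was made.

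The clonotype with the most Il21 cells, in WT mouse 23, had it in 48 of 148 cells, and that with the most Il10 cells, in 564Igi mouse 17, in 22 of 62.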
